A study of Homo sapiens with 6 samples.

Results

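The genes examined here encode the membrane carriers that move amino acids and close relatives of them across human cell membranes. They were taken by name from the families SLC1A, SLC3A, SLC6A, SLC7A, SLC36A, SLC38A and SLC43A, leaving out SLC7A11, which gave 58 of the 20811 genes in the table. The SLC6 family brought 19 of them, SLC7 12, SLC38 11, SLC1 7, SLC36 4, SLC43 3 and SLC3 2. Not every member carries a protein amino acid, since the SLC6 family also holds the transporters of monoamines, taurine and creatine.

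The study compared HuCCT1/CD90+ with HuCCT1/CD90− cells to learn what a rise in CD90 changes in intrahepatic cholangiocarcinoma cells. HuCCT1 is a human cell line from such a tumor of the bile ducts. HuCCT1/CD90+ cells received the human THY1-CMV-GFP lentivirus, THY1 being the gene that encodes CD90. HuCCT1/CD90− cells received the Lenti-CMV-GFP-2A-Puro-Blank virus instead, and both viruses were used at a multiplicity of infection of 40. Both virus names hold CMV and GFP, and only that of the blank virus holds Puro. Which gene the CMV promoter drives in each is not stated. Both lines were grown in RPMI medium with fetal bovine serum. The labels name 3 replicates of each line without saying whether they were separate cultures or separate transductions, so p-values measure the spread between these libraries only.

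Each gene was read over 1 amplicon of the Ion AmpliSeq Transcriptome panel, and the values are RPM, the reads of a gene scaled by the authors to a common library size. The 6 libraries held 8587634 to 10551516 reads, and no more than 3 reads in every library of a line placed a gene at the detection floor there, which covers counting error only and lies between 0.284 and 0.349 RPM. THY1 had at most 1 read per library in HuCCT1/CD90− and 435, 445 and 680 reads in HuCCT1/CD90+, whose mean RPM was at least 179-fold that of the other line, taken at the floor. Of cholangiocyte markers, KRT7 had 3150 to 3796 RPM in the former line and 3468 to 4027 RPM in the latter, KRT19 had 3042 to 3462 RPM and 3900 to 4291 RPM, and EPCAM had 24.9 to 32.1 RPM and 316 to 416 RPM. Of markers of other cells, ALB, TTR, PTPRC, CD3E, MS4A1 and KDR were at the floor in both lines, while the 6 fibroblast markers together gave 41.8 to 64.9 RPM without the THY1 virus and 20.3 to 24.7 RPM with it. Endothelial markers, led by CDH5 in HuCCT1/CD90−, gave 14.5 to 23.2 RPM and 0.643 to 1.63 RPM. The 6 hepatocyte markers together, of which APOA1 and SERPINA1 were above the floor, gave 3.59 to 5.89 RPM and 0 to 0.858 RPM. Of leukocyte markers above the floor, CD14 was lower in HuCCT1/CD90+ (69.3 to 88.2 RPM against 4.18 to 4.54 RPM) and CD68 higher (46.4 to 55.4 RPM against 83.6 to 100.4 RPM). The part of these other-cell markers in the results was not tested. Because amplicons differ in efficiency, levels of different genes are not ranked against each other, and in bulk libraries less RNA per cell and fewer expressing cells cannot be told apart.

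Cells obtain amino acids through carriers with overlapping substrates. The SLC1 family takes up glutamate or exchanges small neutral amino acids, the SLC38 family brings in glutamine and other neutral amino acids with sodium, and the SLC7 family holds the carriers of cationic amino acids and the light chains that work only when bound to a heavy chain of the SLC3 family. Tumor cells are known to rely on a core of these carriers, among them SLC1A5 for glutamine and the SLC7A5 and SLC3A2 pair for leucine and other large neutral amino acids.

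Of the 58 members, 8 passed the test for a difference, set at an adjusted p up to 0.05 with a change of 1.5-fold or more (limma on log2(RPM + 1), Benjamini-Hochberg adjustment over all 20811 genes). These were 13.8% of the members, beside 15.1% of all genes. The members SLC6A8, SLC6A20 and SLC7A4 were higher in HuCCT1/CD90+, where 7.59% of all genes were, and SLC6A6, SLC6A14, SLC1A7, SLC7A7 and SLC38A4 were lower, where 7.49% of all genes were. The share of members that differed was thus close to the background. At the thresholds stated in the study's methods (1.5-fold and an unadjusted p up to 0.05), 10 members passed, 4 higher and 6 lower, or 17.2% beside 20.1% of all genes. The median log2 fold change was 0 over the 58 members and 0 over all genes, since many genes had no reads. The libraries of the lines did not overlap for 16 members, 9 higher and 7 lower in HuCCT1/CD90+, which is 27.6% beside 35.0% of all genes.

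A total of 33 members were above the floor in at least 1 line. The other 25 were at the floor in both, 20 of them without a read in any library and none with more than 3 reads in a library. That is 43.1% of the members, beside 32.3% of all genes. Among the SLC6 genes 12 of 19 were at the floor, among them the transporters of GABA (SLC6A11 and SLC6A12), noradrenaline (SLC6A2), serotonin (SLC6A4), glycine at inhibitory nerve endings (SLC6A5) and proline (SLC6A7), together with SLC6A15, SLC6A16, SLC6A17, SLC6A18 and the intestinal and renal carrier SLC6A19. In the SLC7 family SLC7A3, SLC7A9, SLC7A10, SLC7A13 and SLC7A14 were at the floor, as was SLC3A1, the heavy chain that partners SLC7A9 in kidney and gut. The remaining ones were the glutamate transporters SLC1A2 and SLC1A6, the proton-coupled SLC36A2 and SLC36A3, and SLC38A3, SLC38A8 and SLC38A11. All 3 genes of the SLC43 family were above the floor.

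**Figure D1:**
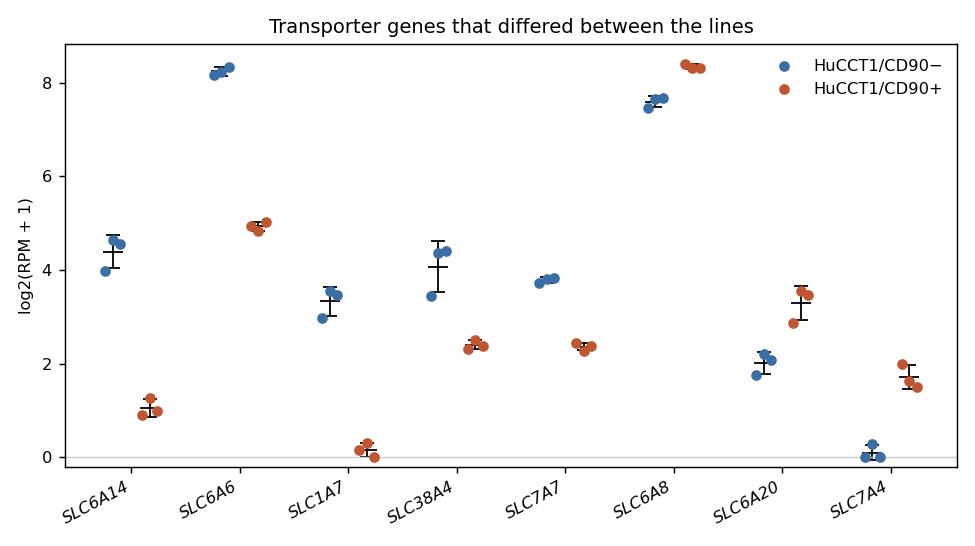
Levels of the 8 members that passed the test, as log2(RPM + 1) on the vertical axis. Points are single libraries (3 per line, blue for HuCCT1/CD90− and orange for HuCCT1/CD90+), horizontal marks the means and bars the SD. The colours do not overlap for any of these genes, and the SLC1A7 points of HuCCT1/CD90+ and the SLC7A4 points of HuCCT1/CD90− lie at or near 0.

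The taurine transporter gene SLC6A6 showed the strongest fall among well-read members. Its level was 286, 299 and 323 RPM in HuCCT1/CD90− and 29.6, 27.7 and 31.8 RPM in HuCCT1/CD90+. The lines were far apart, and the mean of HuCCT1/CD90+ was 10.2-fold lower. Means were 303 ± 19.1 and 29.7 ± 2.04 RPM (SD, n = 3 each), and the log2 fold change of -3.31 had a standard error of 0.072 (limma adjusted p = 0.00027). SLC6A6 spans 14402576 to 14489349 on the plus strand of chromosome 3 (GRCh38, GENCODE 29). The table holds no amplicon positions, so whether an exon shared by all isoforms was read is not known. It rests on 238 to 3333 reads per library.

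SLC6A14, a broad carrier of neutral and cationic amino acids that also uses chloride, also fell steeply. The HuCCT1/CD90− libraries had 14.9, 23.9 and 22.6 RPM and the HuCCT1/CD90+ libraries 0.858, 1.40 and 0.977 RPM, the latter from 8 to 12 reads. The lines did not overlap, and the mean was 19.0-fold higher in HuCCT1/CD90−. The log2 fold change was -3.35 ± 0.22 (SE, limma adjusted p = 0.0020). Its promoter is shown because it is the called member with the lowest log2 fold change on the log2(RPM + 1) scale, and it has a RefSeq window. The 250 bases before the gene's start (RefSeq, GRCh38.p14, chrX:116436356-116436605, plus strand) are printed with matches to the 3 motifs searched in capitals, here the AP-1 letters TGANTCA that begin 216 bases before the start.

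SLC6A14: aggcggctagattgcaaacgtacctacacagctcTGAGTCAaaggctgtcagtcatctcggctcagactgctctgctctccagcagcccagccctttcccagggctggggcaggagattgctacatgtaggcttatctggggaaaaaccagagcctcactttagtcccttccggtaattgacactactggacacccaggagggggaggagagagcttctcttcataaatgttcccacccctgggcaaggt

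SLC1A7, a glutamate transporter known best from the retina, went from low levels to the floor. It had 6.82, 10.8 and 9.99 RPM in HuCCT1/CD90−, which are 72, 101 and 103 reads, and 1, 2 and 0 reads in HuCCT1/CD90+. All libraries of HuCCT1/CD90+ were thus at the floor and the gene was at least 26.4-fold lower there. The limma adjusted p was 0.0018.

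SLC7A7 encodes y+LAT1, a light chain that exports cationic amino acids in exchange for neutral ones and sodium. It had 12.1, 13.1 and 13.2 RPM in HuCCT1/CD90− and 4.39, 3.84 and 4.23 RPM in HuCCT1/CD90+. Both sets were tight and well apart, with a log2 fold change of -1.42 ± 0.055 (SE, limma adjusted p = 0.00066). SLC38A4, a carrier of neutral and cationic amino acids typical of liver, had 9.86, 19.6 and 20.3 RPM in HuCCT1/CD90− and 3.97, 4.66 and 4.23 RPM in HuCCT1/CD90+. The HuCCT1/CD90− libraries varied, with replicate 1 the lowest, yet all lay above the other line. Its log2 fold change was -1.67 ± 0.30 (SE, limma adjusted p = 0.028). The call on SLC38A4 was lost with the replicate number as a block (adjusted p = 0.069), and when any library but HuCCT1/CD90− replicate 1 was left out (adjusted p from 0.084 to 0.098).

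The creatine transporter gene SLC6A8 was the well-read member that rose. It had 176, 202 and 202 RPM in HuCCT1/CD90− and 338, 317 and 317 RPM in HuCCT1/CD90+. The lines did not overlap, with means of 193 ± 14.6 and 324 ± 12.2 RPM (SD, n = 3 each), a 1.68-fold difference. The log2 fold change was 0.74 ± 0.068 (SE, limma adjusted p = 0.0047), and with the replicate block the adjusted p was 0.051. SLC6A8 has a near-identical pseudogene, SLC6A10P, whose own amplicon had no read in any library, so how reads were shared between the copies cannot be read from the table. Its upstream window is shown as that of the most read member that passed the test upward. The 250 bases before the gene's start (RefSeq, GRCh38.p14, chrX:153687676-153687925, plus strand) hold none of the 3 motifs and so no capitals.

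SLC6A8: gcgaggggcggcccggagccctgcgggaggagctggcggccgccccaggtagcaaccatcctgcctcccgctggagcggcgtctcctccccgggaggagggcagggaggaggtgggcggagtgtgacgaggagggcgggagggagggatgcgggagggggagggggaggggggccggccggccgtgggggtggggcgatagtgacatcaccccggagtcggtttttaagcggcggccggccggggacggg

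SLC6A20, a carrier of proline and other imino acids, had 2.37, 3.64 and 3.20 RPM in HuCCT1/CD90− and 6.33, 10.7 and 10.1 RPM in HuCCT1/CD90+. It was 2.95-fold higher in HuCCT1/CD90+, without overlap, at 25 to 93 reads per library. The log2 fold change was 1.29 ± 0.24 (SE, limma adjusted p = 0.030). Leaving out any library other than HuCCT1/CD90+ replicate 1 moved the adjusted p of SLC6A20 to between 0.070 and 0.10, over the threshold. SLC7A4, a relative of the cationic amino acid transporters, had 0, 2 and 0 reads in HuCCT1/CD90− and 28, 18 and 17 reads in HuCCT1/CD90+. The HuCCT1/CD90+ libraries held 3.00, 2.10 and 1.85 RPM, and their mean was at least 7.21-fold above that of the other line, taken at the floor (limma adjusted p = 0.0063).

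**Figure D2:**
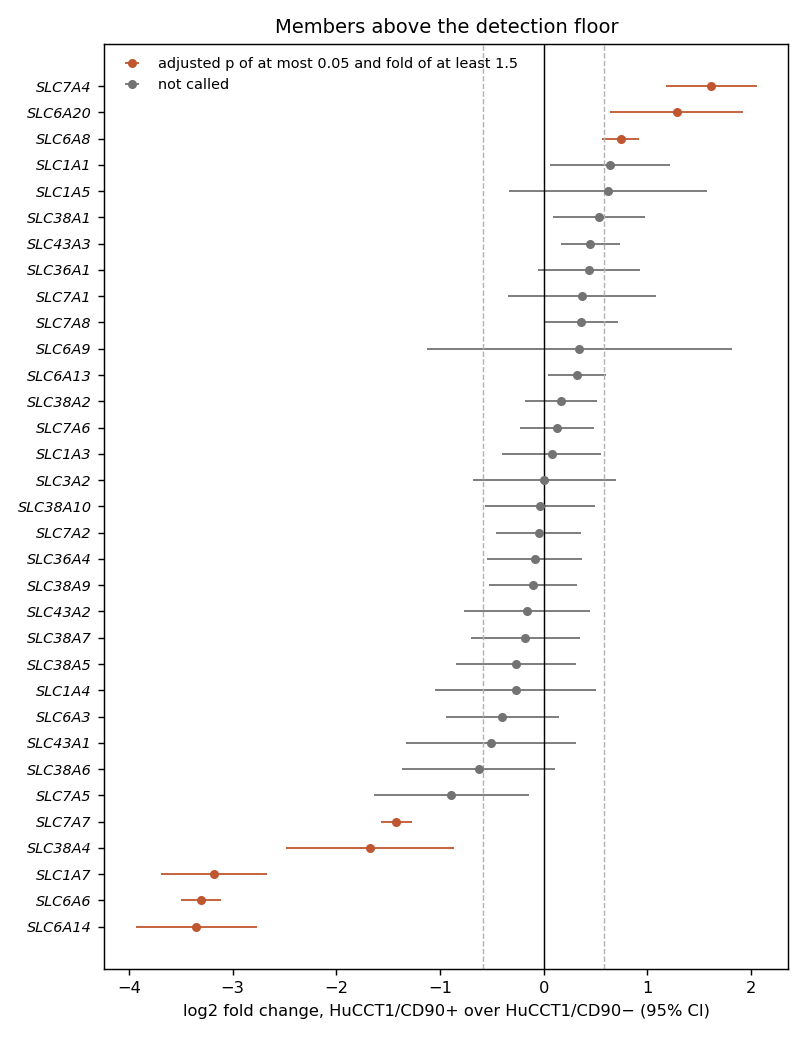
Log2 fold changes, HuCCT1/CD90+ over HuCCT1/CD90−, of the 33 members above the floor (horizontal axis, scale of log2(RPM + 1)), with 95% confidence intervals from limma as bars. Orange marks the 8 genes that passed the test, grey the others, and dashed lines a 1.5-fold difference. The called genes run from -3.35 for SLC6A14 to 1.62 for SLC7A4, and most of the grey intervals span 0.

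The carriers with the core roles described above did not pass the test. SLC7A5, the light chain LAT1, had 458, 774 and 619 RPM in HuCCT1/CD90− and 268, 424 and 301 RPM in HuCCT1/CD90+. The lines did not overlap, but each spread widely, with replicate 1 lowest and replicate 2 highest in both. Means were 617 ± 158 and 331 ± 81.9 RPM (SD, n = 3 each). The log2 fold change was -0.89 ± 0.28 (SE, 95% confidence interval from -1.64 to -0.15, limma adjusted p = 0.11, unadjusted p = 0.029), which passed the study's thresholds only. Between libraries of the same replicate number, the level in HuCCT1/CD90+ was 0.586, 0.547 and 0.486 times that in HuCCT1/CD90−. With the replicate number as a block the adjusted p was 0.034 and SLC7A5 was called, as it also was with median centring (0.040), with a filter of 1 RPM (0.0081) or 10 RPM (0.0050) on the mean, with edgeR (0.00065) and with DESeq2 (6.6e-05). SLC7A5 has partial copies, SLC7A5P1 and SLC7A5P2, whose amplicons gave 9.22 to 22.0 RPM, so its reads may be shared. Its upstream window (RefSeq, GRCh38.p14, chr16:87869508-87869757, minus strand, printed in the gene's direction) is shown because the gene has the largest fold difference among the well-read members outside the call. The capitals mark the E-box CACGTG, which begins 130 bases before the start.

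SLC7A5: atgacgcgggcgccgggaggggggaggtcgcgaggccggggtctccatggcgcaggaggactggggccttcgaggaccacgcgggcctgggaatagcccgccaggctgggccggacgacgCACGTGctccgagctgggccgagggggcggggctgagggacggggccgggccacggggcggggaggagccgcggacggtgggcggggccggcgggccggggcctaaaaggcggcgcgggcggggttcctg

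SLC3A2 encodes CD98hc, the heavy chain that brings SLC7A5, SLC7A6, SLC7A7 and SLC7A8 to the cell surface. It had 209, 323 and 266 RPM in HuCCT1/CD90− and 212, 344 and 250.4 RPM in HuCCT1/CD90+. The lines overlapped fully, with a log2 fold change of 0.01 (95% confidence interval from -0.68 to 0.70, limma adjusted p = 1), which took either sign across the alternatives. Within a library the RPM of SLC7A5 was 2.19, 2.39 and 2.33 times that of SLC3A2 in HuCCT1/CD90− and 1.26, 1.23 and 1.20 times in HuCCT1/CD90+. The spread seen for each gene alone was mostly gone from this ratio, whose means were 2.30 ± 0.10 and 1.23 ± 0.031 (SD, n = 3 each). An exact two-sided permutation test gave p = 0.1, the smallest it can give with 3 against 3 libraries, and 0.15 after adjustment over the 3 ratios computed. The ratio of SLC7A7 to SLC3A2 was 0.0494 ± 0.0089 and 0.0163 ± 0.0048, also without overlap (exact permutation p = 0.1, adjusted 0.15). That of SLC7A6, the light chain y+LAT2, overlapped between the lines (0.123 ± 0.025 and 0.137 ± 0.043, exact permutation p = 0.6). Such a ratio holds amplicon efficiency in its level, so only its difference between the lines can be read.

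**Figure D3:**
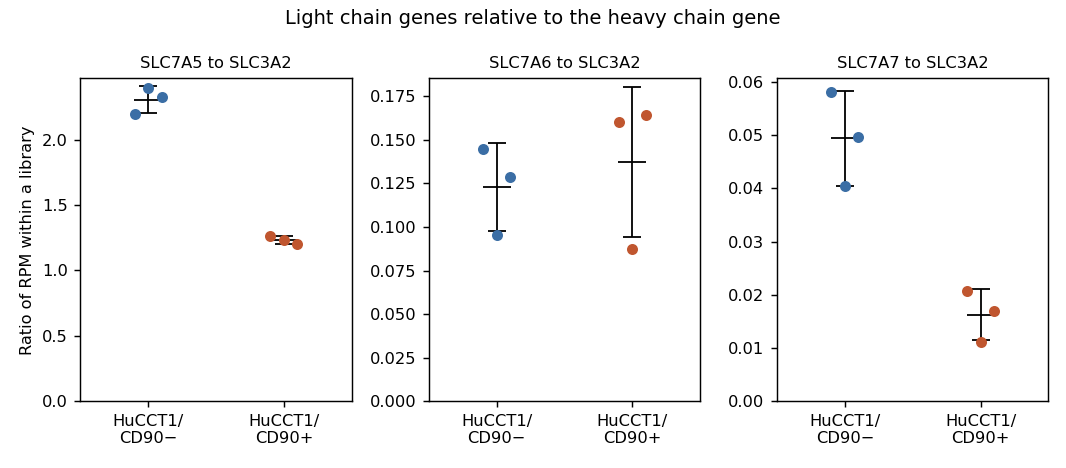
RPM of each light chain gene divided by that of SLC3A2 in the same library (vertical axes, starting at 0 and scaled separately). Points are libraries, horizontal marks the means of 3 and bars the SD. For SLC7A5 the 3 HuCCT1/CD90− points lie between 2.19 and 2.39 and the HuCCT1/CD90+ points between 1.20 and 1.26, whereas the SLC7A6 points overlap.

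The main glutamine and cationic amino acid importers had higher means in HuCCT1/CD90+ but did not pass the test. SLC1A5 (ASCT2) had 123, 278 and 164 RPM in HuCCT1/CD90− and 235, 338 and 257 RPM in HuCCT1/CD90+. The lines overlapped, although within each replicate number HuCCT1/CD90+ was higher (1.91, 1.22 and 1.57 times), and the 95% confidence interval of the log2 fold change ran from -0.34 to 1.58 (limma adjusted p = 0.35). SLC7A1 (CAT1), the main importer of arginine and lysine in most cells, had 137, 250.5 and 191 RPM and 215, 289 and 229 RPM, with an interval from -0.34 to 1.08 (limma adjusted p = 0.48). Within each replicate number SLC7A1 was also higher in HuCCT1/CD90+ (1.56, 1.15 and 1.20 times). With the replicate block neither SLC1A5 (limma adjusted p = 0.16) nor SLC7A1 (0.21) was called. SLC38A1 had 51.9, 72.4 and 75.0 RPM in HuCCT1/CD90− and 90.8, 102 and 93.9 RPM in HuCCT1/CD90+. These libraries did not overlap, with a log2 fold change of 0.54 ± 0.17 (SE, limma adjusted p = 0.10) that was under the 1.5-fold threshold. The adjusted p of SLC38A1 passed with median centring (0.040), either RPM filter, edgeR (0.0099) and DESeq2 (0.0046), but its change stayed under 1.5-fold there. SLC38A2, the sodium-coupled carrier known to be raised when amino acids run short, had 368, 364 and 454 RPM and 499, 412 and 419 RPM, an interval from -0.18 to 0.51 and an adjusted p of 0.52 (limma).

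Of the other well-read members, SLC43A3, which carries purine nucleobases rather than amino acids, had 215, 257 and 248 RPM in HuCCT1/CD90− and 365, 322 and 299.6 RPM in HuCCT1/CD90+. The lines did not overlap, and its log2 fold change of 0.45 ± 0.11 (SE, limma adjusted p = 0.055) missed both limits. SLC1A4 (ASCT1), an exchanger of alanine, serine and cysteine, had 57.9, 110.2 and 88.5 RPM and 58.7, 83.0 and 65.6 RPM. SLC38A10 had 73.6, 102 and 77.0 RPM and 65.8, 89.9 and 91.3 RPM. Both overlapped between the lines, with 95% confidence intervals of the log2 fold change from -1.04 to 0.50 for SLC1A4 and from -0.57 to 0.50 for SLC38A10 (limma adjusted p = 0.64 and 1).

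**Figure D4:**
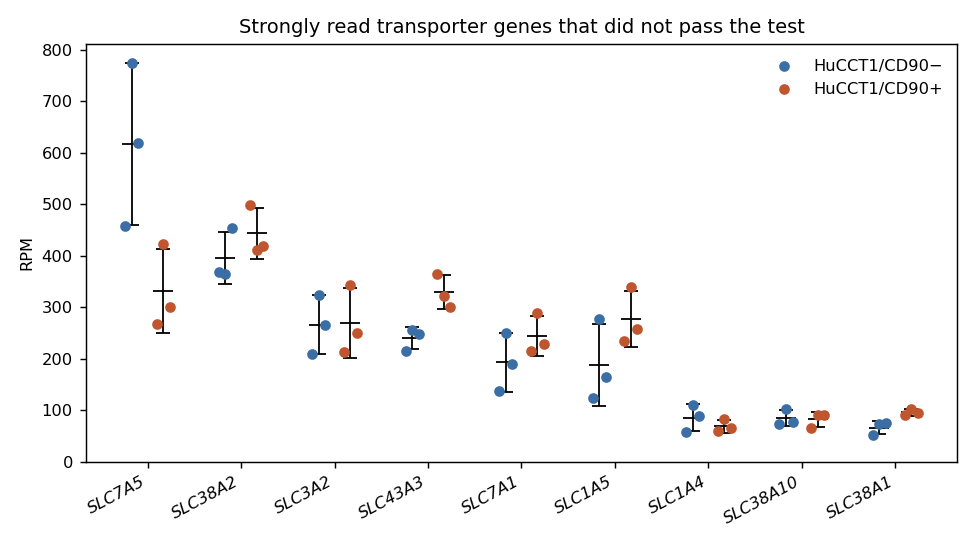
RPM (vertical axis, starting at 0) of the 9 members with a mean of at least 50 RPM in either line that did not pass the test. Points are single libraries, blue for HuCCT1/CD90− and orange for HuCCT1/CD90+, horizontal marks the means of 3 and bars the SD. The colours are apart for SLC7A5, SLC43A3 and SLC38A1 and overlap for the other 6 genes.

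The remaining 16 members above the floor had means between 0.0957 and 41.8 RPM and log2 fold changes from -0.63 for SLC38A6 to 0.64 for SLC1A1, with adjusted p-values from 0.12 to 1 (limma). The libraries of the lines were apart for 5 of them, namely SLC1A1, SLC36A1, SLC6A13, SLC6A3 and SLC7A8, and overlapped for 11. The glutamate transporter SLC1A1 had 5.40, 6.53 and 9.80 RPM in HuCCT1/CD90− and 10.8, 11.5 and 12.3 RPM in HuCCT1/CD90+, which passed the study's thresholds but not the adjusted one (adjusted p = 0.13). SLC1A1 was called with a filter of 1 RPM, with edgeR (0.025), with DESeq2 (0.034) and without HuCCT1/CD90− replicate 3 (0.027). SLC38A6 had 13.7, 12.8 and 19.3 RPM and 7.72, 7.92 and 13.5 RPM (limma adjusted p = 0.23), and was called with the replicate block (0.049), with either RPM filter, with edgeR (0.034) and with DESeq2 (0.047). The lysosomal carriers SLC36A1, SLC38A7 and SLC38A9, which report or release amino acids to the growth kinase mTORC1, had adjusted p-values of 0.21, 0.66 and 0.82. SLC1A3, SLC7A2 and SLC7A6 were among those closest to equality, with log2 fold changes of 0.08, -0.05 and 0.13. SLC36A4, SLC38A5, SLC43A1, SLC43A2 and SLC6A9 completed the group. SLC6A9, the glycine transporter GlyT1, ranged from 1 to 28 reads within HuCCT1/CD90− alone.

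Each value was set beside that of its surroundings, the median log2 fold change over the 50 closest genes read at 10 RPM or more. This median varied between places, such as 0.65 around GATSL2 and -0.54 around MTOR. Whether neighbouring genes moved together was not tested. For the 8 called members this median lay between -0.23 (SLC1A7) and 0.22 (SLC7A4). To take it out, the RPM of HuCCT1/CD90+ was divided by the fold this median stands for before 1 was added and the log taken, so the shift on the log2(RPM + 1) scale is smaller than the median for weakly read genes. All 8 were then still called, with log2 fold changes from -3.37 for SLC6A14 to 1.47 for SLC7A4. For SLC7A5 the neighbours had a median of -0.19, and the log2 fold change after subtraction was -0.70 (limma adjusted p = 0.20).

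The upstream windows were compared by 3 short motifs on both strands: the ATF4 letters TGATGNAA, the E-box CACGTG bound by MYC and TFEB, and the AP-1 letters TGANTCA, none of which contains another. RefSeq windows of 300 bases (250 before the start and 50 after) were found for 44 of the 58 members. The ATF4 letters were in 4 of them (9.09%, beside 3.62% of all 35116 windows), the E-box in 6 (13.6%, beside 7.26%) and the AP-1 letters in 7 (15.9%, beside 7.71%). The members with the ATF4 letters were SLC3A2, SLC7A1, SLC38A1 and SLC1A3, none of which passed the test. Of the 6 called members with a window, SLC1A7 held the E-box and SLC6A14 the AP-1 letters. A match is a stretch of letters and not a measured binding site.

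Other genes that handle amino acids were taken in 4 lists to place the carriers beside the rest of the pathway. Of 44 enzymes of amino acid synthesis and breakdown, 7 were higher and 5 lower in HuCCT1/CD90+ (27.3%, beside 15.1% of all genes), with a median log2 fold change of 0.01. IDO1, which starts the breakdown of tryptophan, fell from 11.9, 18.3 and 17.0 RPM to the floor, at least 45.1-fold lower (limma adjusted p = 0.0014). ARG2, which splits arginine, rose from 5.69, 6.74 and 5.34 RPM to 39.5, 30.0 and 28.2 RPM (limma adjusted p = 0.0023). ASS1, which makes the precursor of arginine, rose from 16.9, 33.8 and 30.8 RPM to 117, 121 and 133 RPM (limma adjusted p = 0.012), a call lost without HuCCT1/CD90+ replicate 2 or replicate 3 (adjusted p up to 0.055). The 3 genes had no overlap between the lines.

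A pair of enzymes was chosen after their values were seen, because they act in the synthesis of the substrates of SLC6A6 and SLC6A8. CDO1 and GATM, also in the list, act in the same routes and are not described here. The pair therefore does not stand for either route as a whole. CSAD, of taurine synthesis, fell from 7.77, 7.81 and 8.54 RPM to 2.14, 2.68 and 1.95 RPM (log2 fold change -1.48, limma adjusted p = 0.0020). GAMT, which completes creatine, fell from 13.1, 15.2 and 11.4 RPM to 2.25, 3.38 and 3.26 RPM (log2 fold change -1.85, limma adjusted p = 0.0047). The taurine transporter and CSAD were thus both lower, while the creatine transporter was higher and GAMT lower.

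Of 38 genes that sense amino acids at the lysosome, 3 were higher and 3 lower (15.8%), with a median log2 fold change of -0.02. Among the called genes the largest differences were rises of FNIP2, a partner of folliculin (log2 fold change 0.90, limma adjusted p = 0.028), GATSL2, a relative of the arginine sensor CASTOR1 (0.71, 0.018), and MIOS, a GATOR2 subunit (0.69, 0.0057). The neighbours of these genes had medians of 0.34, 0.65 and 0.38, and after subtraction none was called (adjusted p = 0.098 for FNIP2 and 0.50 for GATSL2, and a log2 fold change of 0.34 for MIOS). The called falls were NPRL3 (log2 fold change -0.62, limma adjusted p = 0.043), RRAGB (-0.61, 0.042) and MTOR (-0.61, 0.027). Of these falls only RRAGB was still called after subtraction (limma adjusted p = 0.0496). The count of 6 in this list was 3 with the replicate block and 1 or 2 when any 1 library was left out. The share of all genes called also fell, from 15.1% to 10.1% with the block and to between 8.98% and 11.6% with 1 library left out.

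Of 14 partner and trafficking genes, 2 were higher and 2 lower (28.6%, median 0.04). RNF5, a ubiquitin ligase known to act on SLC1A5 and SLC38A2, fell from 36.5, 33.1 and 34.0 RPM to 17.2, 18.6 and 16.2 RPM (limma adjusted p = 0.0023), and the arrestin ARRDC3 fell with a log2 fold change of -0.90 (limma adjusted p = 0.047), a call lost after subtraction of neighbours (0.082) and when any library but HuCCT1/CD90+ replicate 2 was left out (up to 0.14). LGALS3, a lectin that binds CD98, rose from 173, 204 and 208 RPM to 341, 340.0 and 308 RPM (limma adjusted p = 0.0095), but by less than 1.5-fold after subtraction of neighbours (log2 fold change 0.53). TMEM27, a partner of SLC6 carriers in kidney, was the fourth, at least 3.46-fold higher in HuCCT1/CD90+ at about 1 RPM. With the replicate block RNF5 and TMEM27 were still called, and ARRDC3 (adjusted p = 0.086) and LGALS3 (0.065) were not. Of 23 vesicular, mitochondrial and other amino acid carriers, 2 were higher and none lower (8.70%, median 0.01). They were CTNS, the lysosomal exporter of cystine (log2 fold change 1.03, limma adjusted p = 0.023), and SLC25A39 (0.61, 0.023), which is known for importing glutathione into mitochondria rather than free amino acids. With the block neither was called. Both also lost the call without HuCCT1/CD90− replicate 1 or 3, as did CTNS without replicate 2 of that line or replicate 1 of HuCCT1/CD90+, and SLC25A39 without HuCCT1/CD90+ replicate 2 or 3 (adjusted p up to 0.076 and 0.088).

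**Figure D5:**
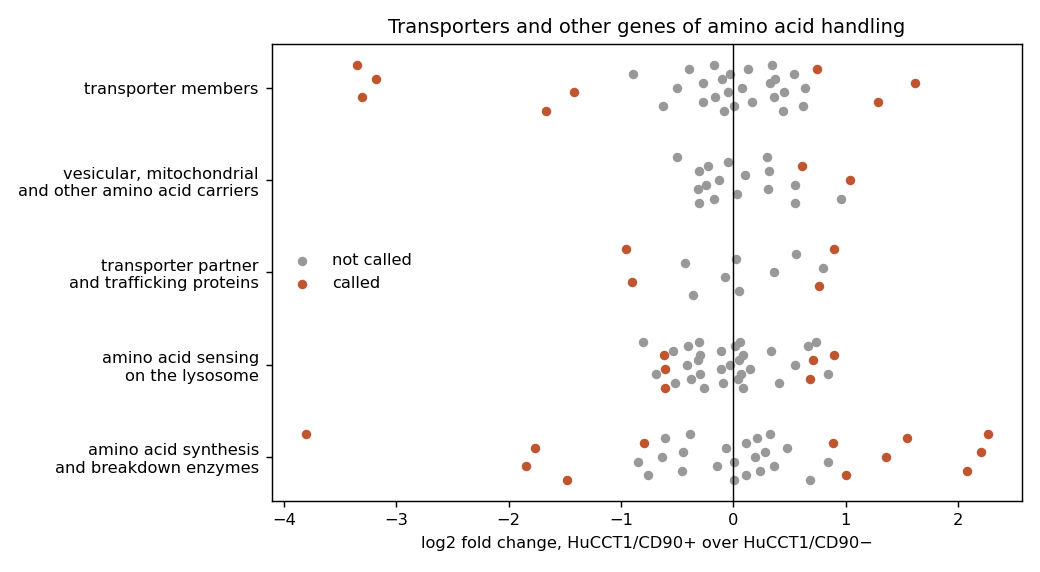
Log2 fold changes, HuCCT1/CD90+ over HuCCT1/CD90− (horizontal axis), of the genes above the floor among the members and in the 4 lists (rows, points spread vertically for legibility). Orange points passed the test and grey points did not. The widest points on either side are IDO1 at -3.81 and ARG2 at 2.27, both enzymes, and among the members SLC6A14, SLC6A6 and SLC1A7 lie below -3.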

How the data were processed

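Expression was measured in 3 HuCCT1/CD90+ and 3 HuCCT1/CD90− libraries. Per the paper's methods, the authors reverse-transcribed total RNA, amplified it with the Ion AmpliSeq transcriptome panel, ran the libraries on the Ion GeneStudio S5 Prime instrument and used the ampliSeqRNA plugin to count reads. The submitters' processing notes name the build hg19. The deposited values are RPM, scaled by the authors, for 20811 genes, each listed with 1 target of its own. Whole reads were recovered from them for 100% of values (within 0.1 read). A chi-square test of these reads found no 2 libraries that were copies of each other. They carry no molecular identifiers, so read counts cover counting error only.

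Differences were fitted with limma 3.58.1 in R 4.3.3 (lmFit and eBayes, no block) on log2(RPM + 1) over all genes, without a filter, and adjusted with the Benjamini-Hochberg method. A gene was called with an adjusted p up to 0.05 and a change of 1.5-fold or more. This scale understates changes of weakly read genes. The fit was tested on simulated data. Deviations from the line means correlated with r = 0.21, 0.32 and 0.18 between libraries of replicate number 1, 2 and 3, and with -0.29 to 0.07 otherwise, so the data, not the labels, were the ground for treating equal numbers as pairs. Deviations within a line cancel out, so the low values follow in part from the higher ones and are no separate support. Whether such a pairing could arise by chance was not tested. Alternatives were other offsets, filters and normalizations, the replicate block, each library left out, other fold limits, subtraction of neighbouring genes (positions from RefSeq, GRCh38.p14), edgeR 4.0.16 with filterByExpr (12070 genes) and DESeq2 1.42.0 on recovered reads.

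The members and lists were chosen with earlier results of these data known. Members were described singly if called or if their mean was at least 50 RPM in a line. From each list the 3 called genes with the largest change and a mean of at least 1 RPM were named. Others named were chosen after their values were seen. The ratios to SLC3A2 and the motifs were also chosen with the data in view. Some single items among the members and markers are counted but not reported by name here.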

Additional observations from a re-analysis of the deposited data

How the results depend on the processing

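The 8 called members kept their direction, and SLC1A7, SLC6A14, SLC6A6 and SLC7A7 stayed called, under every alternative that tested them. The filter of 10 RPM removed SLC1A7, SLC7A7, SLC6A20 and SLC7A4, which have no value there. The replicate block, which treats equal replicate numbers as pairs, ended the calls on SLC38A4 (adjusted p = 0.069) and SLC6A8 (0.051) and added SLC7A5 (0.034) and SLC38A6 (0.049). SLC6A8 also lost its call at a minimum fold of 2, and SLC7A4 with an offset of 5 RPM (log2 fold change 0.53). Leaving out single libraries ended the calls on SLC38A4 and SLC6A20 as given above. On the recovered reads edgeR called 4200 of 12070 genes tested (34.8%), among them 4 members higher and 7 lower, and DESeq2 called 4236 of 14399 (29.4%), with 4 and 7 members. Among genes with a mean of 10 RPM or more (29.3% called) 1 member was called higher instead of 3, and among those with 1 RPM or more (33.3% called) 4 were called higher and 7 lower. SLC3A2 changed sign with quantile normalization (-0.035), median centring (-0.018) and neighbours subtracted (-0.10), and ranged from -0.18 to 0.16 with 1 library left out. SLC38A10 was 0.039 after subtraction of neighbours and ranged from -0.12 to 0.12 with 1 library left out. The cause of these changes was not tested.

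Of the pathway lists, the other carriers (2 called) had 5 called with DESeq2, 1 with the 10 RPM filter, quantile normalization or a minimum fold of 2, and 0 with the replicate block. The partners (4) had 2 with the block or an offset of 5 RPM and 0 at a minimum fold of 2. The sensing genes (6) had 10 with edgeR or with no minimum fold, 3 with the block, 2 with an offset of 5 RPM or neighbours subtracted and 0 at a minimum fold of 2. With 1 library left out, the other carriers ranged from 0 to 2, the sensing genes from 1 to 2 and the enzymes (12) from 7 to 10. Over all genes the share called was 15.1% in the main fit, 10.1% with the block and 11.6% with an offset of 5 RPM. With 1 library left out it was 8.98% to 11.6%. With 3 libraries per line, the intervals of SLC1A5, SLC7A1, SLC1A4, SLC7A5, SLC38A1 and SLC43A3 still hold differences over 1.5-fold in 1 direction. That of SLC3A2 holds them in both directions. The members at the floor may be expressed under the depth reached here.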
